A study of Mus musculus with 10 samples.

Results

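The WWD and R mutants of Dnmt3a2 were set directly against each other, using the Dnmt3a2 ChIP-seq values of these constructs at all 32293 H3K4me3 regions, 29023 H3K4me2 regions and 24302 H3K4me1 regions of the deposited tables. The comparison drew on 4 of the 10 samples of the series: WWD line 1, WWD bulk, R line 1 and R bulk, all by FLAG ChIP. The cells of each group were J1 mouse embryonic stem cells that lack Dnmt1, Dnmt3a and Dnmt3b (Dnmt TKO), at passages 7 to 10, carrying a FLAG-tagged WWD or R Dnmt3a2. Cells with the WT construct, on the same TKO background, serve as a further column, and H3K4me3 ChIP of the WWD and R line 1 cells gave the level of the mark. Each table holds 1 Dnmt3a2 column per construct, and its name does not show whether it is line 1, bulk or both. No comparison therefore has a replicate, no test was run, and intervals are 95% counting intervals, exact except where 1 ratio is divided by another. These cover counting error only: reads from 18 cycles of PCR are not independent molecules, and the intervals say nothing of how cultures differ.

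Dnmt3a2 is a shorter isoform of the de novo DNA methyltransferase Dnmt3a that is abundant in embryonic stem cells. The ADD domain of the enzyme binds the tail of histone H3 where lysine 4 is unmethylated, and methylation of that lysine weakens the binding. The series concerns an engineered histone-recognition domain. As background known of the study, WWD is a variant built to tolerate methylation at H3K4, and R is a variant built to tolerate phosphorylation of the neighbouring threonine. H3K4me3 typically marks active promoters, H3K4me2 promoters and enhancers, and H3K4me1 enhancers. H3K4me1 and H3K4me2 were not measured in the samples listed here, and whether the regions named after them bore these marks was not checked.

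WWD Dnmt3a2 had more reads than R Dnmt3a2 at each set of regions, and it had a read at more of them. The Dnmt3a2 column of WWD stood for 17259400 reads in all and that of R for 25254320. At H3K4me3 regions WWD had 27230 reads and R had 15189, which is 0.158% and 0.0601% of those totals. Scaled by the totals, WWD was 2.62-fold higher (interval 2.57 to 2.68). At H3K4me2 regions the reads were 27033 in WWD and 23008 in R, a ratio of 1.72 (1.69 to 1.75). At H3K4me1 regions they were 35782 and 25783, a ratio of 2.03 (2.00 to 2.06). The ratio was thus highest at H3K4me3 regions, 1.53 times (1.49 to 1.57) that at H3K4me2 regions and 1.29 times (1.26 to 1.33) that at H3K4me1 regions. With at most 20 reads counted per region these were 1.52 (1.48 to 1.56) and 1.19 (1.16 to 1.22). The order of the tables does not follow the degree of methylation, since the H3K4me1 ratio stood above the H3K4me2 ratio. At the 6 mitochondrial regions, which belong to the H3K4me2 table, the ratio went the other way, at 0.684 (0.538 to 0.864), from 107 WWD and 229 R reads. With at most 20 reads counted per region it was 1.18 (0.887 to 1.57), so this direction did not hold under the cap. Where only regions with reads of 2 or more constructs were kept, the ratios shrank to 1.54 at H3K4me3 and 1.33 at H3K4me1 regions.

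The listed regions cover 0.122% (H3K4me3), 0.110% (H3K4me2) and 0.0922% (H3K4me1) of the length of the autosomes and X up to their last listed region. Against reads spread evenly over that length, WWD stood at 1.29, 1.42 and 2.25 times the even share in the 3 tables. R stood at 0.491, 0.828 and 1.11 times. The WT column stood at 0.460, 0.782 and 1.26 times. R and WT were therefore both below an even share at H3K4me3 and H3K4me2 regions, where WWD was above it. An even share is not a measured background, and the input sample was not analysed here.

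A WWD read was present at 25.5% of H3K4me3 regions (24.98% to 25.9%), and an R read at 9.79% (9.47% to 10.1%). A region with at least 1 read is called occupied here, which without input does not show binding of the protein. For the H3K4me2 table WWD occupied 29.5% of regions and R occupied 15.5%. For the H3K4me1 table WWD occupied 39.6% and R 18.6%. The ratios of the shares were 2.60, 1.90 and 2.13, although R was the more deeply sequenced column. To compare them at 1 depth, R reads were thinned in expectation to the WWD total. The ratios of shares were then 2.87, 2.08 and 2.33. An occupied H3K4me3 region held 3.31 reads on average in WWD, against 3.63 in thinned R and 4.81 in R before thinning. At matched depth the WWD over R ratios of reads per occupied region were 0.913, 0.825 and 0.873. WWD thus had a read at more regions than R in each table, and somewhat fewer reads in a region with any.

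**Figure D1:**
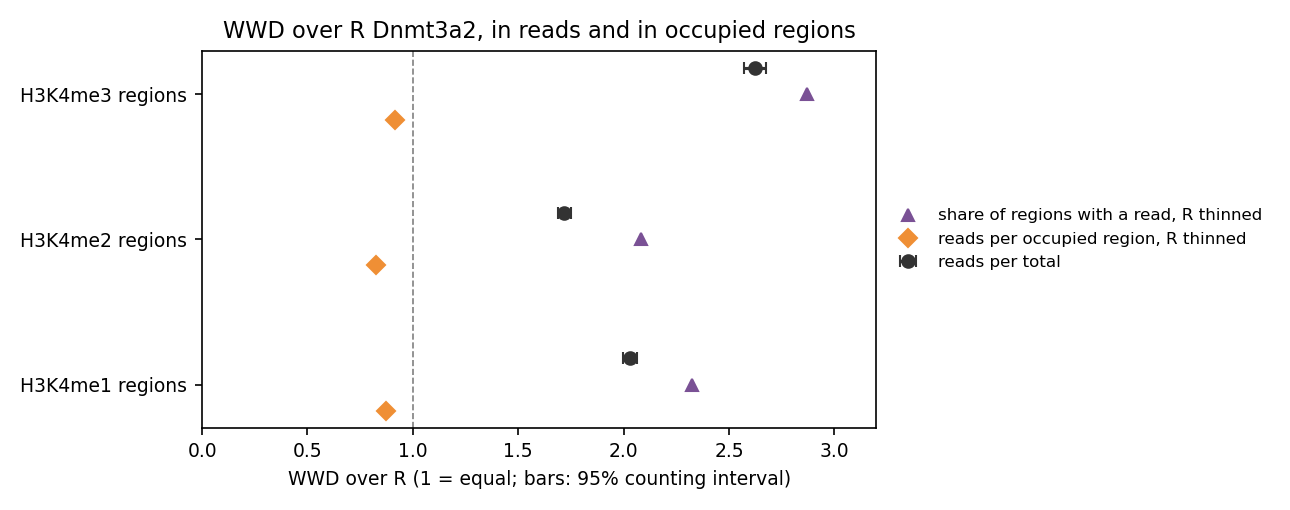
WWD over R Dnmt3a2 on a linear axis, for each of the 3 sets of regions: reads scaled by the column totals (circles, with 95% counting intervals), and, with R reads thinned in expectation to the WWD total, the share of regions with at least 1 read (triangles) and reads per occupied region (diamonds). Circles and triangles lie between 1.72 and 2.87, and the diamonds between 0.825 and 0.913.

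The columns were also compared in how reads were spread over the occupied regions. At H3K4me3 regions the number of WWD regions fell steadily with the reads they held, from 2390 with 1 read and 1561 with 2 reads to 986 with 4 and 671 with 5. R had 806 regions with 1 read, only 297 with 2, then 300 with 3, 314 with 4 and 318 with 5. R thus stayed level from 2 to 5 reads, over which WWD fell. R has 1.46 times the reads of WWD in all, and thinned to the WWD total it fell too, from 435.7 regions with 2 reads to 276.3 with 5, less steeply than WWD. Regions with at least 10 reads held 10.4% of WWD reads and 12.0% of thinned R reads in the H3K4me3 table, 9.86% and 14.9% in the H3K4me2 table, and 16.2% and 22.6% in the H3K4me1 table. Before thinning the R shares were 29.9%, 33.9% and 39.7%. The count of regions past a minimum was likewise compared at matched depth. At least 5 reads were found in 2.34 times as many H3K4me3 regions in WWD as in thinned R, and at least 10 reads in 2.21 times as many. For the H3K4me2 table these ratios were 1.43 and 1.19, lower than the 2.08 for at least 1 read, and at H3K4me1 regions they were 2.09 and 2.18. WWD thus stayed above R at minimums of 5 and 10 reads. Regions of at least 20 reads were few, 5, 4 and 13 in WWD against an expected 1.6, 8.8 and 21.2 in thinned R. Without thinning, a minimum of 5 reads gave 1.40, 0.902 and 1.29. What set the shape of either distribution was not tested.

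**Figure D2:**
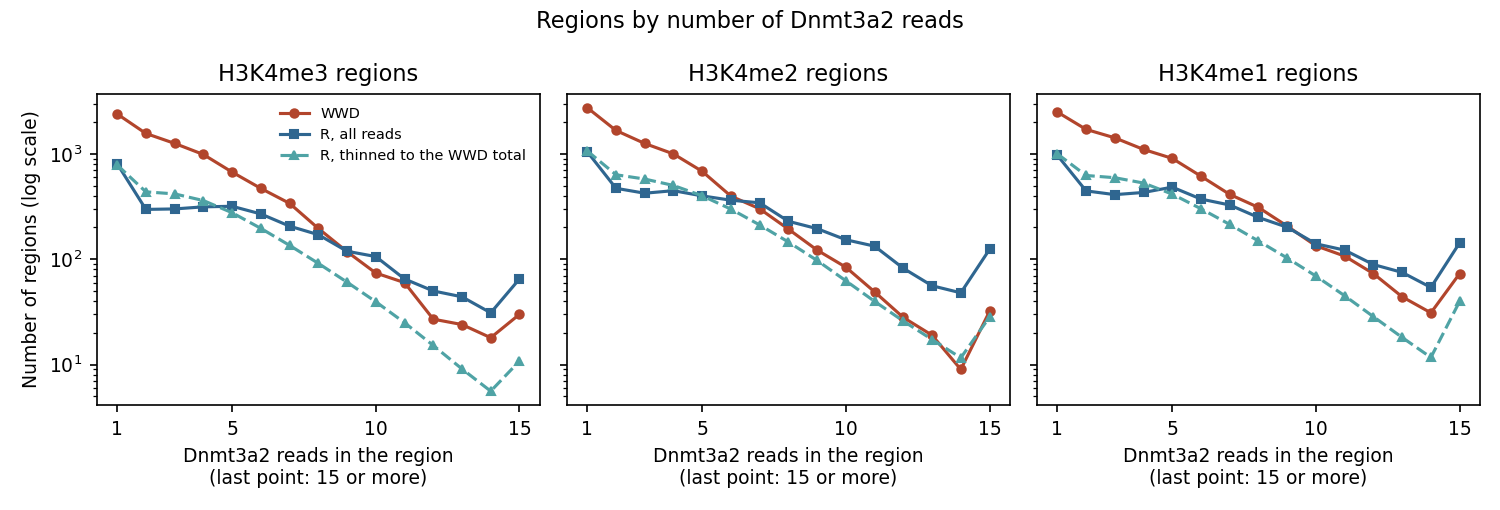
Number of regions (log scale) by the Dnmt3a2 reads they held, in WWD (circles), in R (squares) and in R thinned in expectation to the WWD total (triangles), for the 3 sets of regions. Regions with 0 reads are left out and the last point gathers 15 or more reads. WWD lies above R at 1 read, with 2390 against 806 H3K4me3 regions before and 784 after thinning.

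Few H3K4me3 regions had reads of both mutants, though somewhat more than the shares over all regions would give. Of the 8220 H3K4me3 regions with a WWD read and the 3161 with an R read, 1017 had both, which is 12.4% of the WWD regions and 32.2% of the R regions. Over all H3K4me3 regions an R read was present at 9.79% and a WWD read at 25.5%, so both shares lay somewhat above the overall ones. Among regions without an R read, 24.7% had a WWD read, and among those without a WWD read, 8.91% had an R read. A read of 1 mutant thus went with a share of the other higher by a few percentage points. Spearman's rho of the reads over regions was 0.053 in the H3K4me3 table, 0.041 in the H3K4me2 table and 0.036 in the H3K4me1 table, values given as a description over regions that share the same pair of libraries. A WT Dnmt3a2 read was found at 14.8% (12.7% to 17.2%) of the H3K4me3 regions with reads of both mutants, at 12.0% (11.3% to 12.8%) of those with WWD reads alone, at 11.5% (10.2% to 12.9%) of those with R reads alone and at 8.80% (8.43% to 9.18%) of those with neither. Regions with reads of both mutants also had the lowest median H3K4me3 of these classes in the WWD cells, 11.5 reads per 10000000 reads against 20.4 at regions with neither.

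A region was called higher in one mutant where it had at least 3 reads per 10000000 there, which takes 6 WWD or 8 R reads, and at least 2-fold the level of the other. Calls are a description of these columns, without a test. At H3K4me3 regions 1284 were called higher in WWD, or 3.98% of the regions, and 559 higher in R, or 1.73%. At H3K4me2 regions 1144 (3.94%) were higher in WWD and 907 (3.13%) in R. At H3K4me1 regions 1830 (7.53%) were higher in WWD and 869 (3.58%) in R. Most calls set a handful of reads against none. The median H3K4me3 region called for WWD had 7 WWD reads, and 92.1% of these regions had no R read. The median region called for R had 10 R reads, and 75.3% had no WWD read. A WT Dnmt3a2 read was found at 14.6% (12.8% to 16.7%) of the regions called for WWD, above the 9.89% (9.56% to 10.2%) of all H3K4me3 regions. It was found at 12.3% (9.73% to 15.4%) of those called for R, an interval that overlaps both. In the other tables the share was higher for R calls, with overlapping intervals. At H3K4me2 regions it was 19.7% (17.4% to 22.1%) for WWD calls and 21.8% (19.2% to 24.7%) for R calls, against 16.1% of all. At H3K4me1 regions it was 24.9% (22.9% to 26.9%) and 29.2% (26.2% to 32.4%), against 22.7% of all. The counts depend on the minimum: with at least 5 reads per 10000000, 337 H3K4me3 regions were higher in WWD and 123 in R.

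Among the largest differences by ratio, the H3K4me1 region chr11:84955290-84955389 (mm9) had 27 WWD reads, 1 R read and no WT read, a ratio of 39.5 with an interval from 6.51 to 1617. At H3K4me2 regions the first such region, chr11:115692495-115692594, had 17 WWD reads against 1 R read and no WT read. In the other direction the H3K4me1 region chrX:121268423-121268522 had 150 R reads, 2 WWD reads and 34 WT reads. The H3K4me2 region chr3:152364630-152364729 had 63 R, 2 WWD and 64 WT reads, so the WT column stood with R there. At H3K4me3 regions the largest ratios were smaller. The first for WWD, chr18:38534575-38534674, had 12 WWD reads and 1 R read, with no H3K4me3 read in WWD or R cells. The second, chr12:28024309-28024408, had 11 WWD reads and 1 R read, with 41 H3K4me3 reads in WWD cells and 47 in R cells. The third, chr8:122985931-122986030, also had 11 and 1, with 1 H3K4me3 read in WWD cells and 0 in R cells. The region chr11:101443643-101443742 had 21 R reads and 1 WWD read, with 26 H3K4me3 reads in WWD cells and 18 in R cells. The ranking replaced a column at 0 by a floor of 3 reads, which places regions with 1 read in the lower column above those with none. Of the latter, chosen after their values were seen, the H3K4me3 region chr4:145453955-145454054 had most WWD reads, 24, with none in R or WT. It held 173 H3K4me3 reads in WWD cells and 79 in R cells. The next, chr11:60923726-60923825, had 21 WWD reads with none in R or WT and no H3K4me3 read in any of the 3 constructs. That region was at least 10.2-fold higher in WWD against the floor of 3 reads in the R column. The H3K4me2 region chr10:28388117-28388216 had 28 R reads with none in WWD or WT, at least 6.38-fold higher in R.

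Of the 3 regions with most reads in each table, all had reads of both mutants except chr10:95025266-95025365, which had R reads alone. At chr19:61275611-61275710, the H3K4me3 region with most reads, WWD had 48 reads, R 57 and WT 21, a WWD over R ratio of 1.23 (0.821 to 1.84). It also held 2918 H3K4me3 reads in WWD cells and 2734 in R cells. The next in that table were chr10:95025266-95025365, with 27 R reads and none in WWD or WT, and chr9:78015191-78015290, with 25 R, 4 WWD and no WT reads. The H3K4me1 region chr9:3015676-3015775 had 52 WWD, 1180 R and 1246 WT reads. The H3K4me1 region chrX:73844337-73844436 had 71 WWD, 180 R and 207 WT reads. At both H3K4me1 regions, R stood nearer to WT than WWD did.

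The WWD over R ratio was then followed across the WT Dnmt3a2 reads of the regions, a column that enters neither mutant's values. At H3K4me1 regions it fell from 2.29 (2.24 to 2.33) at the 18774 regions without a WT read to 1.95 (1.85 to 2.06) at 5 to 9 WT reads, 1.64 (1.49 to 1.81) at 10 to 19, and 0.193 (0.172 to 0.217) at the 41 regions with 20 or more. At these 41 regions R had 2420 reads and WWD 320, and the region with 1180 R reads is among them. Without it the ratio was 0.316 (0.276 to 0.361) over 40 regions. Of these, 8 lie on Y, with 45 WWD and 364 R reads, and without them too it was 0.372 (0.320 to 0.432) over 32 regions. At H3K4me2 regions it was 1.78 (1.75 to 1.82) without a WT read and 0.738 (0.624 to 0.872) at the 20 regions with 20 or more. At H3K4me3 regions the ratio was 2.60 without a WT read, rose to 3.27 (2.96 to 3.62) at 5 to 9 WT reads and was 2.00 (1.65 to 2.43) at 10 to 19. The 4 H3K4me3 regions with 20 or more WT reads gave 1.31 with an interval from 0.879 to 1.94, too wide to place it above or below 1. At the 20 H3K4me2 regions the value rested on a few: 5 are mitochondrial, with 95 WWD and 215 R reads, and 1 is chr3:152364630-152364729. The other 14 regions had 119 WWD and 150 R reads, a ratio of 1.16 (0.905 to 1.49). R thus exceeded WWD where WT was highest at H3K4me1 regions, whereas the direction at H3K4me2 regions rested on these 6. Without the regions of 20 or more WT reads the H3K4me1 ratio rose from 2.03 to 2.22.

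**Figure D3:**
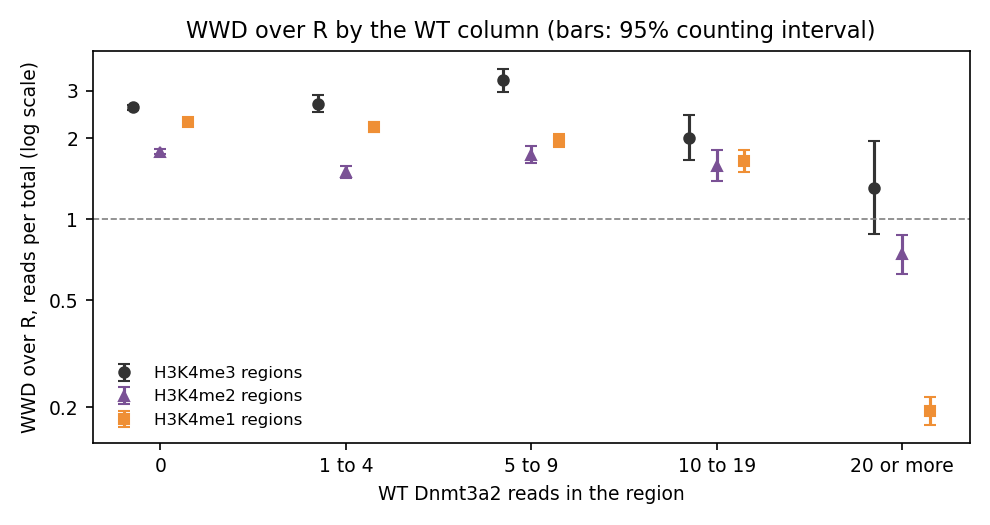
WWD over R Dnmt3a2 reads scaled by the column totals (log axis) in regions grouped by their WT Dnmt3a2 reads, for the 3 sets of regions, with 95% counting intervals. The H3K4me1 points fall from 2.29 at 0 WT reads to 0.193 at 20 or more, where the value without the region of most R reads is 0.316. The H3K4me2 point at 20 or more rests on 6 of 20 regions.

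The next comparison ordered the H3K4me3 regions by their H3K4me3 level, the mean of the WWD and R line 1 columns in reads per 10000000. Both mutants had most occupied regions where H3K4me3 was lowest. From the lowest to the eighth decile the WWD share of occupied regions went from 28.7% (27.1% to 30.3%) to 22.6% (21.2% to 24.1%), and the R share from 12.8% (11.7% to 14.0%) to 7.62% (6.73% to 8.59%). In the ninth decile both shares were higher again, at 24.4% in WWD and 9.14% in R. In the strongest decile, with a median H3K4me3 of 94.0, the WWD share rose further and the R share did not. There the WWD share was back at 27.6% (26.0% to 29.1%), near its level in the lowest decile, and the R share was 8.85% (7.90% to 9.89%), below its level there. The WWD over R ratio of reads was 2.42 (2.29 to 2.56) in the lowest decile and 3.13 (2.93 to 3.34) in the highest. It was already 2.95 (2.75 to 3.17) in the eighth decile and was 2.74 (2.57 to 2.93) in the ninth, so higher ratios were not confined to the highest. Over quintiles the highest stood at 1.23 times the lowest (1.16 to 1.31).

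**Figure D4:**
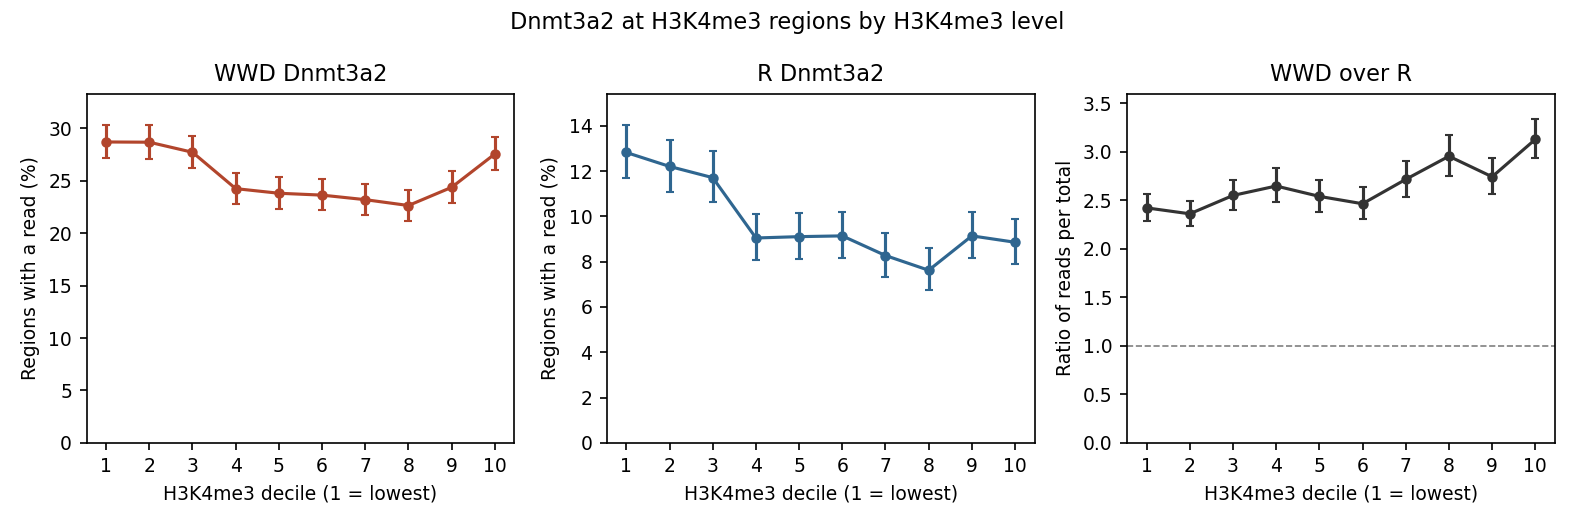
Share of H3K4me3 regions with a Dnmt3a2 read in WWD (left) and in R (middle), and the WWD over R ratio of reads scaled by the totals (right), by decile of H3K4me3 level, with 95% counting intervals and linear axes from 0. WWD ends at 27.6% and R at 8.85% in the highest decile, with a ratio of 3.13.

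Whether the mark itself was present made less difference. At the 2619 H3K4me3 regions with no H3K4me3 read in either WWD or R cells, the WWD over R ratio was 2.42 (2.28 to 2.58), against 2.65 (2.58 to 2.71) at the 25272 regions with a read in both. The ratio was 2.76 (2.61 to 2.93) where only WWD cells had an H3K4me3 read and 2.41 (2.20 to 2.63) where only R cells had one. Regions were also binned by the log2 ratio of H3K4me3 in WWD over R cells, with a pseudocount of 3.65 reads per 10000000. The Dnmt3a2 ratio was 2.75 (2.63 to 2.88) in the bin with least H3K4me3 in WWD relative to R and 2.65 (2.54 to 2.77) in the bin with most. The lowest value, 2.45 (2.35 to 2.57), was in the fourth bin, so the bins followed no steady order. Among regions above the median H3K4me3 level the Dnmt3a2 ratio was 3.19 (2.98 to 3.42) in the first bin and 2.62 (2.45 to 2.80) in the last. Presence of H3K4me3 in 1 mutant alone and the end bins of its ratio thus gave values in opposite orders. The intervals overlap for presence and for the end bins over all regions, and lie apart only for the end bins above the median level.

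H3K4me2 regions had a higher WWD over R ratio near H3K4me3 regions, within 500 bp, than elsewhere. Those near one had a ratio of 1.90 (1.84 to 1.95), and the other H3K4me2 regions 1.62 (1.58 to 1.66). At H3K4me1 regions the ratio was 2.31 (2.11 to 2.53) near an H3K4me3 region and 2.02 (1.99 to 2.06) elsewhere, and 2.28 (2.16 to 2.41) near an H3K4me2 region against 2.01 (1.97 to 2.04) elsewhere. With at most 20 reads counted per region the values elsewhere were 2.21 (2.17 to 2.24) and 2.20 (2.17 to 2.24), inside the intervals near the other regions. H3K4me1 regions thus showed no difference by nearness beyond counting error once the most-read regions were capped. For H3K4me2 regions away from H3K4me3 the capped value was 1.64 (1.61 to 1.68). The levels of both mutants were lower, not higher, at the H3K4me2 regions near H3K4me3. WWD signal there was 0.449 reads per region per 10000000 reads against 0.621 elsewhere, and R signal was 0.236 against 0.384. H3K4me3 regions differed less by their neighbours, with 2.67 (2.59 to 2.75) near H3K4me2 regions and 2.59 (2.52 to 2.66) elsewhere. At H3K4me2 regions near H3K4me1 regions the ratio was lower, 1.59 (1.51 to 1.68) against 1.74 (1.70 to 1.77) elsewhere.

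Along the genome, WWD exceeded R on each of the 19 autosomes in all 3 tables. At H3K4me3 regions the autosomal ratio ran from 2.08 on chromosome 6 to 3.17 on chromosome 13, and at H3K4me2 regions from 1.42 on chromosome 14 to 2.26 on chromosome 19. At H3K4me1 regions it ran from 1.22 on chromosome 9 to 2.52 on chromosome 18. The low value of chromosome 9 rested on the region with 1180 R reads: with at most 20 reads counted per region it was 2.35 (2.19 to 2.53). X gave 2.28 (1.94 to 2.67) at H3K4me3 regions and 0.611 (0.525 to 0.710) at H3K4me1 regions, the latter 1.33 (1.09 to 1.63) with the same cap. Y was the exception that the cap left below 1. Its 16 H3K4me1 regions had 61 WWD and 426 R reads, a ratio of 0.210 (0.158 to 0.275), or 0.458 (0.338 to 0.613) capped. R reads were found at 13 of these regions, WWD reads at 9, and WT had 347 reads in all there. At the 6 mitochondrial regions R had more reads than WWD in each, from 14 against 12 to 57 against 11, before scaling. Scaled by the totals their ratio was 0.684 (0.538 to 0.864), or 1.18 (0.887 to 1.57) capped.

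**Figure D5:**
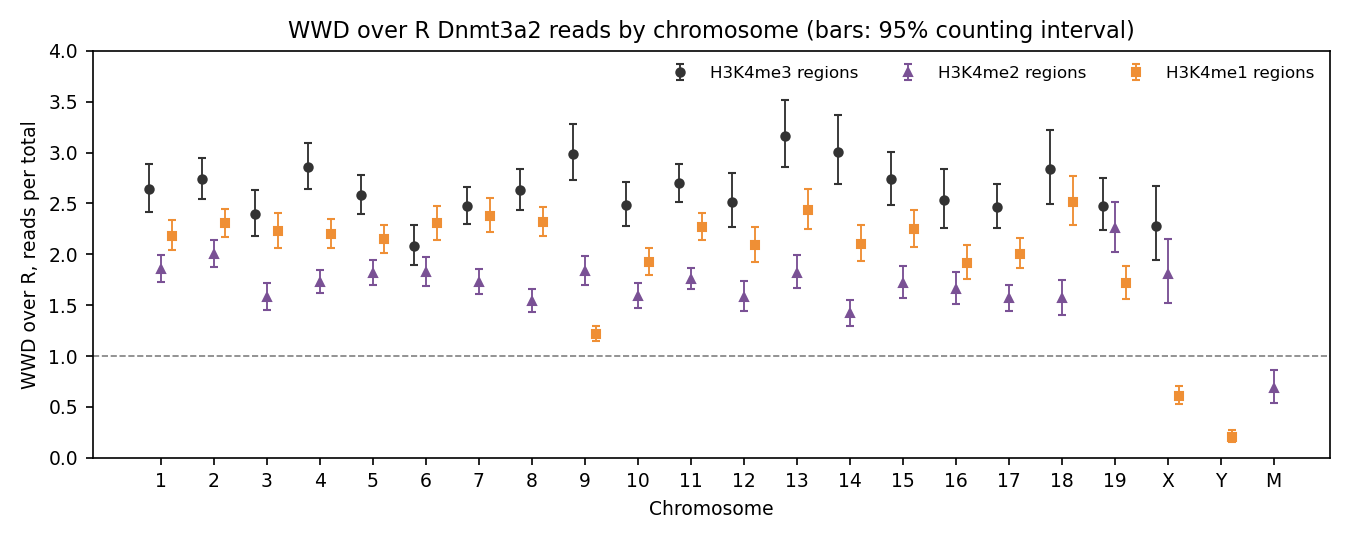
WWD over R Dnmt3a2 reads scaled by the column totals (linear axis) by chromosome for the 3 sets of regions, without a cap, with 95% counting intervals. Autosomal points lie between 1.22 and 3.17, whereas the H3K4me1 points of X and Y and the H3K4me2 point of M lie below 1.

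In windows of 1 Mb holding at least 20 regions of the 3 tables together, WWD exceeded R in 1258 of 1352 windows, or 93.0%. The median ratio was 2.24, with quartiles of 1.59 and 3.33. The windows named here were chosen after their values were seen. Among those with an R read, chr12:111000001-112000000 had the largest ratio, with 64 WWD reads, 1 R read and 37 WT reads over 63 regions. The window chr2:115000001-116000000 had 64 WWD reads, no R read and 35 WT reads over 31 regions, at least 31.2-fold higher in WWD against the floor of 3 reads. Of the 94 windows with R higher, chr16:97000001-98000000 had 42 R reads, 6 WWD reads and 15 WT reads over 24 regions, with R 4.78-fold higher (2.02 to 13.8).

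Regions of the 3 tables were joined into loci where they lay within 500 bp, and the regions with a read were counted in each. Of 2271 loci of at least 4 regions, 1190 (52.4%) had WWD reads in more regions than R reads and 303 (13.3%) had R reads in more regions. The other 778 had equal numbers, and 466 of them had no read of either mutant. In 80 loci at least 3 regions had WWD reads and none had R reads, and 6 loci showed the opposite. These counts also depend on the share of regions with a read, which was higher for WWD in each table. The counts that these shares alone would give were not computed. Whether neighbouring regions moved together therefore cannot be read from them. With regions joined within 200 bp, 36 loci had more WWD and 4 more R regions. The ratio of reads was 1.98 (1.95 to 2.00) at regions standing alone and 2.12 (2.05 to 2.19) in loci of at least 4 regions.

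The locus chr4:48695040-48696570 holds 5 H3K4me3 regions with 3, 7, 7, 8 and 3 WWD reads, and none of them had an R read, a WT Dnmt3a2 read or an H3K4me3 read in any of the 3 constructs. It is named among the H3K4me3 regions but carried no measured H3K4me3 in these cells. The locus chr13:74754044-74755426 had 5, 3, 9 and 6 WWD reads over its 4 regions, with no R or WT read, and its 3 H3K4me3 regions held between 100 and 269 H3K4me3 reads in WWD and R cells. The locus chr19:6929639-6930712 had WWD reads in each of its 4 regions (25 reads), no R read and 3 WT reads. The locus chr4:41220792-41222998 had 22 WWD reads in 5 of its 7 regions, no R read and 1 WT read. Among loci with more R, chr9:123168525-123169593 had 8, 4 and 19 R reads in 3 of its 5 regions, with no WWD or WT read. Its 3 H3K4me3 regions held between 68 and 124 H3K4me3 reads in these cells. The locus chr13:25146891-25148150 had 18 R reads in 3 of 4 regions, no WWD read and 8 WT reads. The remaining pair of loci named for R had 13 and 14 R reads, each in 3 of 4 regions, without a WWD read.

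Over neighbouring regions of a table, whether or not in such loci, a read at a region mostly went with only a small rise in the share of the next. Among H3K4me3 regions at most 500 bp apart, the following region had a WWD read in 23.8% (21.8% to 26.0%) of cases after a region with one and in 22.7% (21.5% to 23.8%) after a region without. For R these shares were 9.74% (7.52% to 12.4%) and 8.35% (7.69% to 9.06%). Over the 3 tables and 3 ranges of distance, the share was higher after a region with a read in all 9 comparisons for WWD and in 8 of 9 for R. The intervals overlapped in all 9 comparisons for WWD and in 7 of 9 for R, which does not show the shares to be equal. Those of R that lay apart were for regions 500 to 2000 bp apart. There the R share rose from 17.6% (15.8% to 19.6%) to 24.6% (20.03% to 29.5%) at H3K4me1 regions. At H3K4me2 regions it rose from 13.8% (12.8% to 14.9%) to 18.4% (15.6% to 21.5%).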

How the data were processed

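Dnmt3a2 was measured by FLAG ChIP-seq and H3K4me3 by antibody ChIP-seq, on chromatin of 160 to 480 bp. Reads were aligned to mm9 with Bowtie, per the submitters' processing notes (version not given in the sources used here). How regions were called is not stated either. The authors deposited log2 values per region with 2 decimals, with a total and an effective total for every column in the file headers. Read from the values, each is log2 of 1 plus reads times the ratio of effective total to total, with a random amount below 1 read added to the reads. Whole reads were recovered by inverting this form and rounding down, which was tested on simulated data. They were scaled by the total, so depth is corrected linearly. Counts of regions past a read minimum were compared with R reads thinned binomially, in expectation, to the WWD total, a step chosen after seeing the data. Left in, the random amount would add on average the same to a region whatever its reads.

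Each table has 1 Dnmt3a2 column per construct against 2 labelled samples, so columns were mapped to constructs, no model was fitted and no p-value is given. No listed sample matched 2 further columns, which were left out. Ratios have exact conditional binomial intervals and shares exact Clopper-Pearson intervals, at 95%, with a floor of 3 reads for 0. Where 1 ratio is divided by another, the interval is a normal approximation on the log scale. Named regions are, per table, those called with the largest ratios each way (up to 5) and the 3 with most reads, plus the 4 loci each way with the largest difference in regions with a read. Examples of these are given. The regions carry no gene names and no mm9 genome was used here, so regions are given by mm9 coordinates without sequence. Members, lists and rules were chosen with earlier results of these data known. Alternatives covered the cap, the read minimum, the fold, the scaling, the sequences used and the joining distance. Python 3.11.15, numpy 2.4.6, pandas 2.3.3, scipy 1.17.1 and matplotlib 3.10.9 were used.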

Additional observations from a re-analysis of the deposited data

How the results depend on the processing

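Of 75 alternative values for 15 results, 24 moved little, 50 moved and 1 reversed; the causes were not tested beyond what each alternative's construction shows. Alternatives named as added were chosen after seeing the data. The ratios of reads (2.62, 1.72 and 2.03 at H3K4me3, H3K4me2 and H3K4me1 regions) stayed above 1 under each alternative. They were 1.54, 1.17 and 1.33 where 2 or more constructs had reads, a filter that selects on the compared columns themselves. They were 1.79, 1.18 and 1.39 when scaled by the effective totals (equal within a table, so depth is left uncorrected). With the random amount left in they were 2.01, 1.62 and 1.85. As added alternatives, they were 3.17, 2.19 and 2.65 with at most 5 reads per region and 3.84, 2.52 and 2.97 when scaled by reads at the mitochondrial regions. The H3K4me1 ratio was 2.21 with a cap of 20 reads, 2.10 on autosomes, 2.19 without the 10 most-read regions of each column and 2.22 without regions of 20 or more WT reads (added). The ratios of shares were 2.48, 1.68 and 2.02 for at least 2 reads, 1.40, 0.902 (reversed) and 1.29 for at least 5 reads, and 2.87, 2.08 and 2.33 with R reads thinned (added). With R thinned, at least 5 reads gave 2.34, 1.43 and 2.09 (added), so the reversal appears where depth is not matched. Counts of called regions depended on the minimum. With at least 2 reads per 10000000 they were 2806, 2632 and 3573 for WWD and 946, 1499 and 1397 for R, and with at least 5 they were 337, 314 and 627 for WWD and 123, 212 and 238 for R. Scaled by the effective totals they were 3662 and 4698 for WWD at H3K4me2 and H3K4me1 regions, and 1018, 2610 and 2507 for R. Loci with more WWD or more R regions numbered 36 and 4 with regions joined within 200 bp, and 2317 and 589 within 1000 bp. The ratio between H3K4me3 quintiles did not move past its interval. No paired analysis was possible because each construct has 1 Dnmt3a2 column, which carries no replicate number. For the same reason no replicate could be left out. Depth limits single regions: at H3K4me3 regions the median call rests on 7 WWD or 10 R reads, mostly against none.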
